A study of Mus musculus with 12 samples.

Results

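Secreted Wnt antagonists were followed across mouse livers that carried c-MET and β-catenin oncogenes or vector, on chow or low-protein diet. The set held 7 genes, Sfrp1, Sfrp2, Sfrp5, Wif1, Dkk2, Dkk3 and Dkk4, of the 27179 genes counted, and each was found by matching the Entrez identifiers of the count table to mouse symbols in RefSeq. The set was chosen with results of these data in view, and Sfrp2 was selected on its own levels, near 0 in vector livers and alike in oncogene livers on both diets. Its values are therefore given as a description, with no test. Of the 7 genes, 6 passed edgeR's filter on low counts and Sfrp5 did not. Sfrp2 and Dkk2 cleared that filter through the groups in which they were high.

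Bulk RNA-seq was made from liver of 4 groups of 3 mice, 1 library per mouse. Male mice, 8 weeks old when the diets began, were put on chow (CD) or on a low-protein diet (LPD) for 1 week and stayed on it after injection. Empty vector (Vec) or c-MET/β-catenin plasmids were injected hydrodynamically through the tail vein together with Sleeping Beauty transposase, which inserts transposon DNA into the hepatocytes that take it up. The methods give C57/Bl3 as the general strain and the study names a mixed 129/Ola and C57BL/6 background for this oncogene model. The labels do not say which applies. The oncogene pair was human c-MET and ΔN90-β-catenin, a form without the N-terminal residues that mark the protein for destruction. Both oncogene plasmids carry the EF1α promoter, which is not cell-type specific. The groups with this oncogene pair are called CD oncogene and LPD oncogene below, beside CD Vec and LPD Vec, and all mice were collected when the CD oncogene mice reached their end point. The submitters' titles call the vector livers WT, and the column names of the count table abbreviate the chow groups with letters that the methods use for a high-protein diet. Groups were assigned by the titles. The labels name the cells as hepatocytes, but the RNA came from liver tissue. Hepatocyte markers summed to 82040 to 139300 CPM (counts scaled to a common library size) per library, and markers of endothelium and of Kupffer cells were present in every library, at 96.28 to 209.6 and 84.86 to 310.8 CPM. In such bulk tissue, fewer cells of a type and less RNA per cell cannot be told apart, and the share of tumor in each liver was not measured here. Libraries held 19476209 to 31990267 counts, so 3 counts, taken here as the upper limit that a count of 0 allows, corresponded to at most 0.171 CPM. Intervals and limits of this kind cover counting error only. All CPM values below were scaled by TMM, edgeR's correction for library composition. Nothing beyond the separate sample labels was found on whether littermates or cages were shared.

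Wnt proteins are secreted lipid-modified ligands that bind Frizzled receptors and LRP5/6 co-receptors on the cell surface and thereby stabilize β-catenin. Secreted antagonists work outside the cell: the Sfrp proteins and Wif1 bind the ligands themselves, while the Dickkopf (Dkk) proteins Dkk2 and Dkk4 bind LRP5/6. In normal liver, Wnt ligands from endothelial cells near the central vein maintain the pericentral program of hepatocytes, glutamine synthetase included. The truncated β-catenin acts downstream of all these proteins.

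Among the Wnt-binding Sfrp genes, Sfrp2 was almost absent from Vec livers and had the highest group mean of the members in oncogene livers. In CD oncogene replicate 1 Dkk3 exceeded it before scaling to gene length, at 6.35 against 5.19 CPM. The CD Vec libraries held 3, 0 and 1 Sfrp2 counts, and the CD oncogene libraries held 180, 1375 and 367. The LPD Vec libraries held 3, 2 and 0, and the LPD oncogene libraries 659, 993 and 245. Every oncogene library thus lay far above every Vec library on either diet. In CPM, the CD oncogene livers stood at 5.19, 56.1 and 13.7 and the LPD oncogene livers at 32.2, 34.8 and 10.7. The means were 25.0 ± 27.2 and 25.9 ± 13.2 (SD, n = 3), and the libraries of the 2 diets overlapped throughout.

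From summed counts scaled to library size, the oncogene-to-Vec ratio of Sfrp2 was 316 on CD, with a 95% counting interval of 123 to 1160, and 338 on LPD, with an interval of 145 to 1040. The fitted log2 fold changes were 8.36 and 8.28, given without a standard error because Sfrp2 was selected on these levels. Since the Vec libraries held so few counts, these values depend on the prior count: with a prior of 2 they were 7.32 and 7.31. The fitted LPD-to-CD difference among oncogene livers was 0.06 on the log2 scale, given without an interval for the same reason. Likeness between the diets rested on 1 library. Without CD oncogene replicate 2, the LPD-to-CD difference of Sfrp2 was 1.46 and the CD oncogene effect was 6.95. The few counts in the Vec livers moved the effects as well, to 9.59 on CD without CD Vec replicate 1 and to 8.97 on LPD without LPD Vec replicate 1. The 3′ end of Sfrp2 overlaps an antisense gene, Gm26771, by 464 bases in GENCODE M21, where Gm26771 lies at chr3:83773853-83789956 on the minus strand and Sfrp2 ends at base 83774316, and as the strand setting of the counting is not stated, reads of that stretch cannot be assigned.

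Promoter sequence is shown for Sfrp2 and Dkk2, the members close to 0 in Vec livers and abundant in CD oncogene livers, of which only Sfrp2 was also abundant in LPD oncogene livers. The sequences are RefSeq's for GRCm38.p6, the build called mm10, and cover the 250 bases before 1 annotated transcript start, 5′ to 3′, with CpG dinucleotides in capitals. Of the 7 members, 4 had an entry, Sfrp2, Sfrp5, Wif1 and Dkk2. The Sfrp2 stretch is chr3:83766071-83766320 and that of Dkk2 is chr3:132085042-132085291, both on the plus strand. They end at the base before the GENCODE M21 gene starts, 83766321 and 132085292. RefSeq's own gene spans begin earlier, at 83765750 for Sfrp2 and 132085266 for Dkk2, so that the Sfrp2 stretch lies within its RefSeq span and the Dkk2 stretch runs into it.
Sfrp2: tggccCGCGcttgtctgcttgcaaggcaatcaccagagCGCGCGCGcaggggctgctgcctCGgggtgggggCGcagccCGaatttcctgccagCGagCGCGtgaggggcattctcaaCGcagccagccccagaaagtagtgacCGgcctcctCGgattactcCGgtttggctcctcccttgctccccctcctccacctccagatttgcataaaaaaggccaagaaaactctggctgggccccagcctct
Dkk2: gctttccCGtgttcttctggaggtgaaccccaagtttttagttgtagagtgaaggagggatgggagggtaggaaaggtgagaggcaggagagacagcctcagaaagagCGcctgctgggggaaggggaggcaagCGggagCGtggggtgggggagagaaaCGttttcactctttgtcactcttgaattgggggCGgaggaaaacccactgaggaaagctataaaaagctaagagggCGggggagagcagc
The Sfrp2 stretch held 16 CpG dinucleotides at 63.6% G+C, and the Dkk2 stretch 7 at 55.6%, against medians of 6 and 52.4% over 32851 promoters of the same length. A TATAAA motif stood in the Dkk2 stretch, its first base 32 bases before the GENCODE start, and 1 stood on the opposite strand of the Wif1 stretch. On either strand, TATAAA was found in 12.4% of all these promoters. CTTTGA, the core that TCF/LEF factors recognise, was in none of the 4 members' stretches and in 13.8% of all promoters, which says only that these letters are not in these windows.

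**Figure D1:**
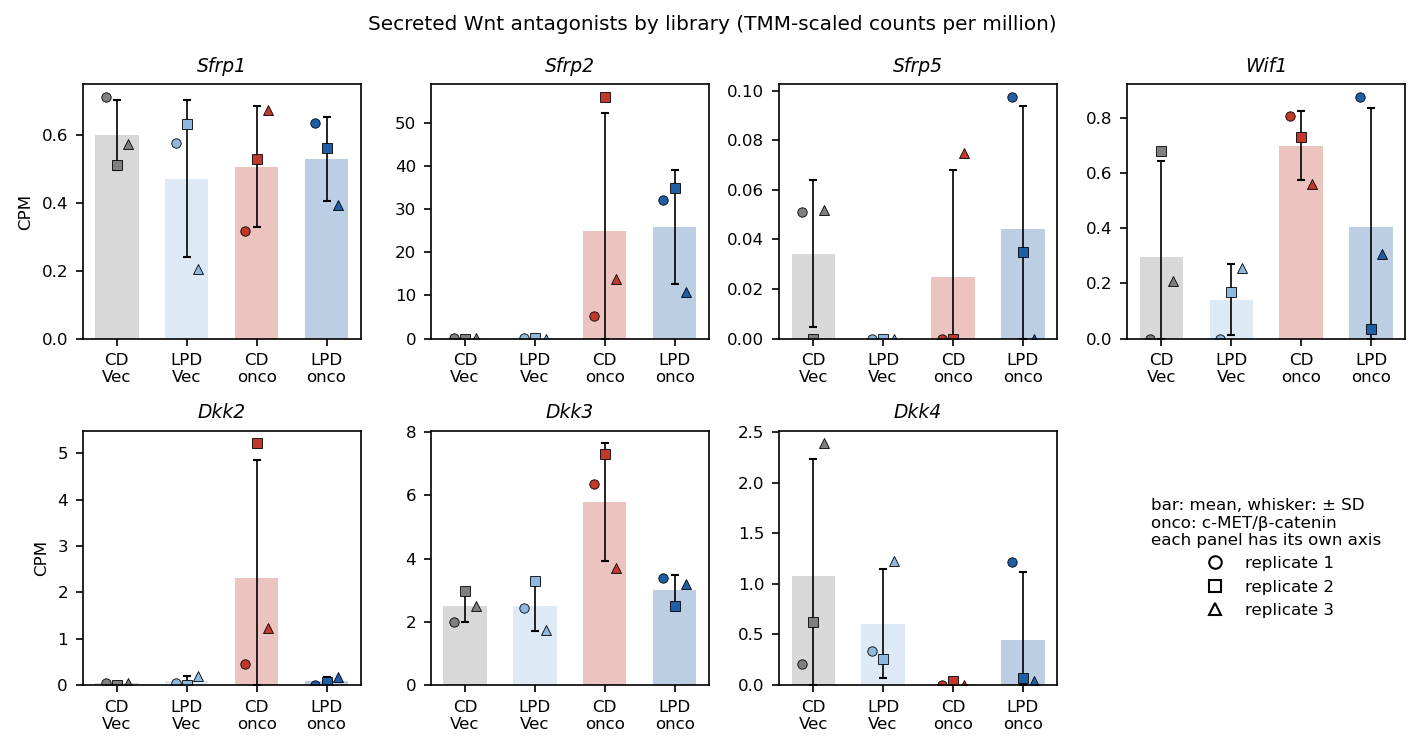
Each panel plots 1 member in TMM-scaled CPM on its own axis that starts at 0, with 1 point per library, the group mean as a bar and ± SD as a whisker. Sfrp2 was high in all 6 oncogene libraries, Dkk2 in the 3 on CD, and Dkk4 had 0 or 1 count in the 3 oncogene libraries on CD.

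The other Sfrp genes and Wif1 stayed low. Sfrp1 had 4 to 18 counts in every library. Its CPM was 0.713, 0.512 and 0.573 in CD Vec and 0.317, 0.530 and 0.673 in CD oncogene livers. On LPD the values were 0.576, 0.633 and 0.205 in Vec and 0.635, 0.561 and 0.393 in oncogene livers. The groups overlapped in each comparison, and the 95% intervals of its oncogene effect ran from -1.22 to 0.70 on CD and from -0.83 to 1.13 on LPD on the log2 scale. Sfrp5 had 0 to 2 counts in every library and was not tested. At this depth nothing can be said about a difference in Sfrp5.

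Wif1, which sequesters Wnt ligands through its WIF domain, had 0, 12 and 4 counts in CD Vec and 28, 18 and 15 in CD oncogene livers. The LPD Vec livers had 0, 4 and 5 and the LPD oncogene livers 18, 1 and 7. One CD Vec liver, at 0.682 CPM, lay within the range of the CD oncogene livers, 0.561 to 0.808 CPM. The log2 oncogene effects were 1.27 ± 0.98 (SE) on CD and 1.42 ± 1.15 on LPD, with adjusted p of 0.341 and 0.761 by edgeR's quasi-likelihood test with Benjamini-Hochberg adjustment over all tested genes. Their 95% intervals, -0.87 to 3.41 and -1.08 to 3.93, leave room for differences in either direction. With 1 library left out, the Wif1 effect ranged from 0.68 without CD Vec replicate 1 to 2.70 without CD Vec replicate 2 on CD. On LPD it ranged from 0.19 without LPD oncogene replicate 1 to 2.07 without LPD Vec replicate 3, with 2.02 without LPD oncogene replicate 2.

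Dkk2, which binds LRP5/6, was high in CD oncogene livers and nowhere else. Counts were 1, 0 and 1 in CD Vec, 16, 128 and 33 in CD oncogene, 1, 0 and 4 in LPD Vec and 0, 2 and 4 in LPD oncogene livers. The 3 CD oncogene livers, at 0.462, 5.22 and 1.23 CPM, lay above all 9 others, of which the highest was at 0.205 CPM. On CD the count ratio of oncogene to Vec livers was 58.1, with a counting interval of 15.9 to 484, and the log2 fold change was 5.81 ± 1.26 (SE; adjusted p = 0.00409, edgeR). On LPD the oncogene effect was 0.07 ± 1.53 (adjusted p = 0.996), with a 95% interval of -3.27 to 3.40. Among oncogene livers Dkk2 was lower on LPD by a log2 fold change of -4.69 ± 1.07 (adjusted p = 0.0104), a count ratio of 0.0405 with an interval of 0.0147 to 0.0900. Leaving out CD oncogene replicate 2 moved the Dkk2 effect on CD to 4.37 and the diet effect in oncogene livers to -3.25, and both kept their call, with adjusted p of 0.0114 and 0.0339. Without LPD oncogene replicate 3, that diet effect was -5.65 (adjusted p = 0.0295). The fits that left out 1 library were run behind the count filter, so their Dkk2 calls are a description. With a prior count of 2, the fitted values were 4.28 and -3.80. As Dkk2 entered the test only through the CD oncogene livers, the fit with no count filter was read too, and it gave a CD effect of 5.81 (adjusted p = 0.00464) and a diet effect in oncogene livers of -4.68 (0.0126).

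Sfrp2 and Dkk2 ran in the same order over the CD oncogene livers, lowest in replicate 1 and highest in replicate 2. In the LPD oncogene livers Sfrp2 was at 10.7 to 34.8 CPM while Dkk2 was at 0 to 0.175 CPM, within its range in Vec livers of 0 to 0.205 CPM.

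Dkk3, a divergent family member whose action on Wnt signaling varies with cell type, was readily detected in all groups. It stood at 1.99, 2.96 and 2.50 CPM in CD Vec and at 6.35, 7.30 and 3.70 CPM in CD oncogene livers. On LPD it stood at 2.45, 3.29 and 1.74 CPM in Vec and at 3.37, 2.49 and 3.19 CPM in oncogene livers. All 3 CD oncogene livers were above the other 9. The oncogene effect was 1.22 ± 0.31 (SE) on the log2 scale on CD (adjusted p = 0.00912, edgeR) and 0.27 ± 0.31 on LPD (adjusted p = 0.868). Among oncogene livers Dkk3 fell by 0.94 ± 0.30 on LPD (adjusted p = 0.046). That last call was close to the threshold and was lost when any of 7 libraries was left out, with adjusted p of 0.057 without CD Vec replicate 3, 0.11 and 0.152 without CD oncogene replicates 1 and 2, 0.0628 without LPD Vec replicate 1, and 0.0836, 0.151 and 0.103 without LPD oncogene replicates 1, 2 and 3. Its log2 value in these 7 fits stayed between -0.74 and -1.02.

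Dkk4, an LRP5/6-binding inhibitor and itself a target of β-catenin and TCF in several cell types, went the other way on CD. CD Vec livers had 4, 11 and 46 counts and CD oncogene livers 0, 1 and 0. LPD Vec livers had 7, 6 and 24 and LPD oncogene livers 25, 2 and 1. The 3 CD oncogene livers, with 0 or 1 count, were below every CD Vec liver, whereas the LPD oncogene livers spread from 0.0437 to 1.22 CPM and overlapped LPD Vec at 0.253 to 1.23 CPM. The lowest LPD oncogene liver and the highest CD oncogene liver each had 1 count, so these groups were not separated. On CD the count ratio of oncogene to Vec livers was 0.0108, with a counting interval of 0.000268 to 0.0623, and the log2 fold change was -5.98 ± 1.70 (SE; adjusted p = 0.0174, edgeR). The call was lost without CD Vec replicate 3 (-4.59, adjusted p = 0.077), without CD oncogene replicate 1 (-5.42, 0.0663) and without CD oncogene replicate 3 (-5.58, 0.05), and the value was -7.64 without CD oncogene replicate 2 (adjusted p = 0.0459). With a prior count of 2 the log2 value was -3.56. The oncogene effect on LPD was -0.50 ± 1.12 (adjusted p = 0.941). Among oncogene livers Dkk4 differed by 4.63 ± 1.86 between LPD and CD (adjusted p = 0.104), a count ratio of 33.5 with an interval of 5.53 to 1370. DESeq2's Wald test called that difference (5.11, adjusted p = 0.0137). It rested on LPD oncogene replicate 1, which held 25 of the 28 counts: without it the Dkk4 value was 1.90 (adjusted p = 0.585, edgeR), and without CD oncogene replicate 2 it was 6.30.

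**Figure D2:**
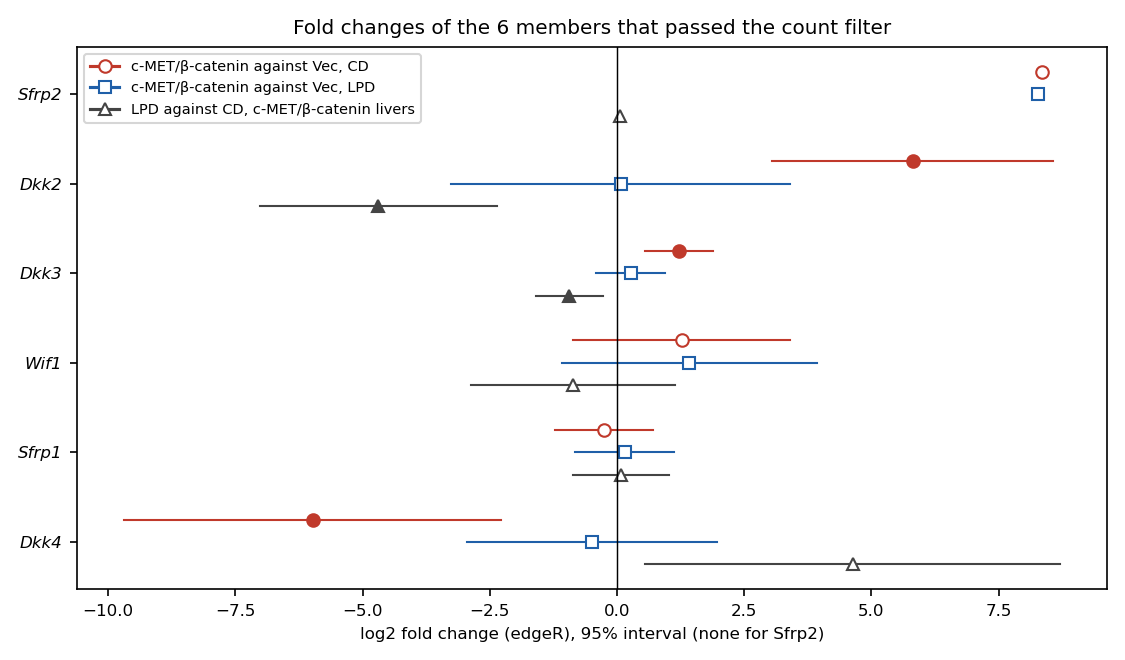
Log2 fold changes of the 6 members that passed the count filter are plotted, oncogene against Vec on CD (circles) and on LPD (squares) and LPD against CD in oncogene livers (triangles). Filled symbols were called at an adjusted p under 0.05, and lines are 95% intervals, left out for Sfrp2, which was given no test. Dkk2 and Dkk3 rose on CD and were lower on LPD than on CD in oncogene livers, Dkk4 fell on CD, and the LPD intervals of these 3, Wif1 and Sfrp1 include 0.

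Counted over the set, oncogene livers on CD differed from Vec in 3 of the 5 tested members other than Sfrp2, Dkk2 and Dkk3 higher and Dkk4 lower, where 35.4% of all 13947 tested genes were called. This count, like those that follow, is a description, since Dkk2 entered the test only through its high group. On LPD edgeR called 0 of the 5, where 1.32% of all genes were called. None of the 5 had an unadjusted p under 0.05 there, and DESeq2 called 0. Between the diets in Vec livers 0 of the 5 were called, where 0.308% of all genes were, with adjusted p from 0.847 to 0.996, none with an unadjusted p under 0.05, and 0 called by DESeq2. Between the diets in oncogene livers 2 of the 5, Dkk2 and Dkk3, were called, both lower on LPD, where 20.0% of all genes were called in either direction. By ranges alone, Sfrp2, Dkk2 and Dkk3 were higher in every oncogene liver than in every Vec liver on CD, as were 22.2% of all tested genes, and Dkk4 was lower in every one, as were 20.4%. On LPD Sfrp2 alone of the set stood above the Vec range, as did 13.5% of all genes. Dkk2 and Dkk3 were lower in every LPD than in every CD oncogene liver, as were 20.0% of genes.

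Whether the oncogene effect differed with diet was tested as an interaction, for which 8.91% of all genes were called. By edgeR 0 of the 5 tested members were called and 3 had an unadjusted p under 0.05. The interaction was -5.74 ± 2.32 (SE) on the log2 scale for Dkk2 (adjusted p = 0.144), -0.96 ± 0.44 for Dkk3 (adjusted p = 0.19) and 5.48 ± 2.17 for Dkk4 (adjusted p = 0.137). Without the count filter, which Dkk2 passed only through the CD oncogene livers, edgeR gave adjusted p of 0.173 for Dkk2 and 0.195 for Dkk4. DESeq2, which was run on all genes with counts and not behind that filter, gave -6.02 for Dkk2 (adjusted p = 0.0182). For Dkk4 it gave 5.94 (adjusted p = 0.0308), and the Dkk2 value is given as a description. With 1 library left out, the Dkk2 interaction ranged from -6.70 without LPD oncogene replicate 3 to -4.14 without LPD Vec replicate 3 and was -4.31 without CD oncogene replicate 2. That of Dkk4 ranged from 2.74 without LPD oncogene replicate 1 to 7.15 without CD oncogene replicate 2, with 4.10 without CD Vec replicate 3 and 6.51 without LPD Vec replicate 3. A call on CD without a call on LPD therefore does not by itself show that the effects of the 2 diets differ.

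Within the libraries, the dataset numbers in the table's header fall into 3 runs, and only 1 of these holds livers of all 4 groups. In it, Sfrp2 was at 0.0521 CPM in the CD Vec liver against 13.7 in the CD oncogene liver, and at 0 to 0.0845 against 10.7 to 34.8 CPM on LPD. Dkk2 was at 0.0521 against 1.23 CPM on CD, with 0 to 0.205 in LPD Vec and 0 to 0.175 in LPD oncogene livers. Dkk3 was at 2.50 against 3.70 CPM on CD and Dkk4 at 2.39 against 0. The directions on CD were thus the same within that run, which holds 1 liver of each CD group. With run as a term in the fit, none of the CD calls remained: the log2 effects were 4.41 for Dkk2 (adjusted p = 0.242), 0.56 for Dkk3 (0.524) and -8.49 for Dkk4 (0.138). The Dkk2 diet effect in oncogene livers was then -3.81 (adjusted p = 0.155) and that of Dkk3 -0.30 (0.759), neither called. What the runs stand for is not stated in the sources used here.

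Levels of different genes were compared per kilobase of exon. In CD oncogene livers the order was Sfrp2 at 11.6 ± 12.7 CPM per kilobase (SD, n = 3), Dkk3 at 1.72 ± 0.554, Dkk2 at 0.622 ± 0.689, Wif1 at 0.289 ± 0.0522, Sfrp1 at 0.116 ± 0.0410, Sfrp5 at 0.0131 ± 0.0227 and Dkk4 at 0.0103 ± 0.0179. Sfrp2 and Dkk3, Dkk2 and Wif1, and Sfrp5 and Dkk4 are neighbours whose means lay closer than their SDs. In CD Vec livers Dkk4 at 0.817 ± 0.884 and Dkk3 at 0.738 ± 0.144 CPM per kilobase led, indistinguishable from each other, and Sfrp2 stood at 0.0317 ± 0.0361. In LPD Vec livers Dkk3 at 0.743 ± 0.231 and Dkk4 at 0.461 ± 0.412 led likewise, with Sfrp1 at 0.108 ± 0.0532, Wif1 at 0.0584 ± 0.0537, Sfrp2 at 0.0354 ± 0.0336 and Dkk2 at 0.0228 ± 0.0290 below them. In LPD oncogene livers Sfrp2 led at 12 ± 6.14, followed by Dkk3 at 0.898 ± 0.138, Dkk4 at 0.338 ± 0.511, Wif1 at 0.168 ± 0.178, Sfrp1 at 0.121 ± 0.0283, Sfrp5 at 0.0233 ± 0.0260 and Dkk2 at 0.0220 ± 0.0237 CPM per kilobase. From Dkk4 to Sfrp1, and between Sfrp5 and Dkk2, neighbours in that order lay within their SDs of each other. Sfrp2 made up 39.6, 80.2 and 68.7% of the summed CPM of the 7 members in CD oncogene livers and 83.8, 91.4 and 72.3% in LPD oncogene livers, against 0 to 4.84% in Vec livers.

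Secreted Wnt antagonists outside the set were 10, of which 3 passed the count filter. Dkk1, Cer1 and Sostdc1 had 0 counts in all libraries, and Sfrp4, Dkkl1, Draxin and Sost had 0 to 3. Notum, an extracellular enzyme that removes the lipid from Wnt ligands and is a feedback target of β-catenin, rose on CD from 36.0 to 48.5 CPM in Vec to 83.4 to 171 in oncogene livers (log2 1.52 ± 0.22, adjusted p = 0.000376, edgeR). On LPD its oncogene effect was 0.45 ± 0.22 (adjusted p = 0.482) and its interaction -1.06 ± 0.31 (adjusted p = 0.0523). Frzb, a further Sfrp family protein, rose on CD (1.66 ± 0.36, adjusted p = 0.00406) and was lower in LPD than in CD oncogene livers (-1.37 ± 0.35, adjusted p = 0.0172), the pattern of Dkk3. The Frzb diet call was lost without CD oncogene replicate 1 (adjusted p = 0.0634) or LPD oncogene replicate 3 (0.0703) and when only the 2 groups were fitted (0.0613). With run as a term both Frzb calls were lost, with a CD effect of 0.84 (adjusted p = 0.384) and a diet effect of -0.65 (0.484). Igfbp4, an IGF-binding protein also reported to antagonize Wnt, had a CD effect of -0.49 ± 0.19 (adjusted p = 0.0615).

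Of 8 membrane-bound antagonists, 5 were tested; 3 rose on CD and 1 on LPD, where 35.4% and 1.32% of all tested genes were called, and their median log2 oncogene effects were 1.36 and 0.52 against -0.010 and 0.011 over all tested genes. The riser on both diets was Apcdd1, a membrane glycoprotein that binds Wnt and LRP5, at 6.08 ± 0.61 on CD (adjusted p = 3.84e-05, edgeR) and 6.70 ± 0.65 on LPD (adjusted p = 0.000719). The LPD value was 5.85 with a prior count of 2 and 7.64 without LPD Vec replicate 1. Apcdd1 too entered the test only through its high groups, so its calls and the counts of this list are a description. The edgeR fit with no count filter gave 6.08 on CD (adjusted p = 1.38e-05) and 6.70 on LPD (0.000224). Like Sfrp2, Apcdd1 was near 0 in Vec livers, at 0 to 0.260 CPM, and overlapped between the diets in oncogene livers, at 7.88 to 15.7 CPM on CD and 7.12 to 15.6 on LPD. The ubiquitin ligases Rnf43 and Znrf3, which remove Frizzled receptors, rose on CD by 1.85 ± 0.26 (adjusted p = 0.000266) and 1.36 ± 0.13 (adjusted p = 3.44e-05). Kremen1, the Dkk co-receptor, had a CD effect of 0.13 ± 0.22 (adjusted p = 0.674).

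The proteins that the antagonists act on included higher and lower calls on CD and none on LPD, where 35.4% and 1.32% of all genes were called, and the shares called among those tested are to be read beside these. Of 19 Wnt ligands 8 were tested, 2 rose and 2 fell on CD, with Wnt5a higher by 1.67 ± 0.27 (adjusted p = 0.000695, edgeR), and Wnt5b lower by -2.15 ± 0.26 (adjusted p = 0.000108) and Wnt2 by -1.78 ± 0.37 (adjusted p = 0.00292). Of 15 receptors and co-receptors 10 were tested, 1 rose and 3 fell, among them the Dkk targets Lrp5 at 1.62 ± 0.31 (adjusted p = 0.00213) and Lrp6 at -0.49 ± 0.17 (adjusted p = 0.0404). The Lrp6 call was lost in 11 of the 12 fits that each left out 1 library, with adjusted p from 0.0507 to 0.153. Of 9 agonists and secretion factors 5 were tested, 1 rose and 2 fell, with Lgr4 at -0.44 ± 0.15 (adjusted p = 0.0375), Lgr5 at 3.38 ± 0.51 (adjusted p = 0.000499) and Rspo3, which protects Frizzled from Rnf43 and Znrf3, at -1.41 ± 0.20 (adjusted p = 0.000274). Dropping single libraries took the Lgr4 call away in 6 of 12 cases, and its value was -0.25 without CD Vec replicate 3. A term for the header run took away the CD calls of Wnt2 (-1.67, adjusted p = 0.152), Lrp5 (1.16, 0.181), Lrp6 (-0.64, 0.228) and Lgr4 (-0.58, 0.176). All 12 β-catenin target and feedback genes were tested, and 11 rose on CD and 5 on LPD. Glul, glutamine synthetase, rose by 3.10 ± 0.22 (adjusted p = 8.9e-06) and 1.71 ± 0.21 (adjusted p = 0.00241). Of the 11 risers on CD, Ccnd1 lost its call with the run term (0.78, adjusted p = 0.574, edgeR). Its call was also lost in 2 of the 12 fits that each left out 1 library. These lists were drawn up with earlier results of these data known.

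Genes most like each member were sought by Pearson's r of log2 CPM over the 12 libraries among 12212 tested genes with a mean of at least 1 CPM. As the libraries fall into the same 4 groups for every gene, r is a description and has no p. Closest to Sfrp2 were Car4, a membrane-anchored carbonic anhydrase (r = 0.979), Apcdd1 (0.973), the calmodulin-binding protein gene Nrgn (0.972), the transcription factor Arnt2 (0.968) and the lactate dehydrogenase subunit Ldhb (0.968). Car4 was at 0 to 0.312 CPM in CD Vec and 0 to 0.240 in LPD Vec livers, against 12.9 to 50.1 in CD and 11.3 to 23.4 in LPD oncogene livers. Arnt2 was at 13.2 to 24.8 CPM in CD and 5.68 to 10.0 in LPD oncogene livers, so its diets did not overlap, unlike those of Sfrp2. Nrgn went from 0.312 to 0.713 CPM in CD Vec to 3.17 to 6.60 in CD oncogene livers and to 3.93 to 11.4 on LPD. All 5 genes were higher in every oncogene liver than in every Vec liver of the same diet.

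**Figure D3:**
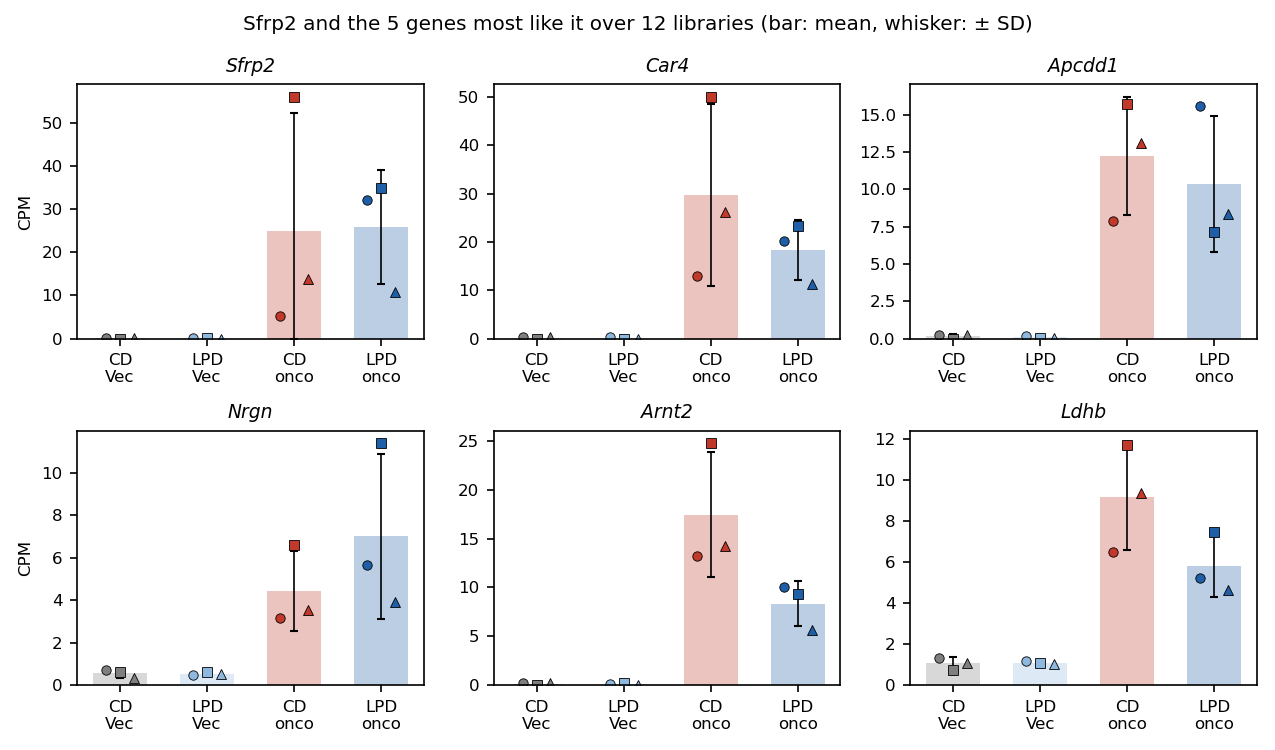
Sfrp2 and the 5 genes closest to it over 12 libraries are plotted in CPM, each on its own axis that starts at 0, with 1 point per library, the mean as a bar and ± SD as a whisker. In all 6 panels the oncogene libraries of both diets lie above the Vec libraries, and in Sfrp2 the CD libraries spread from 5.19 to 56.1 CPM.

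The genes closest to the other members followed other patterns. Dkk2 ran closest to the annexin gene Anxa4 (r = 0.925), the tetraspanin gene Cd151 (0.924) and Vsig10 (0.922), each highest in CD oncogene livers, Vsig10 at 4.82 to 8.11 CPM there and 0.853 to 1.90 elsewhere. Dkk3 ran closest to the chemokine gene Ccl2 (r = 0.951), the matrix protein gene Tnc (0.937) and Phf20 (0.931). Tnc stood at 3.29 to 29.7 CPM in CD oncogene livers and at 0.103 to 0.966 in all others. Dkk4 ran closest to Ginm1 (r = 0.944), the calpain gene Capn8 (0.934) and the autophagy gene Atg9a (0.907), with Capn8 at 1.48 to 12.8 CPM in CD Vec and 0.224 to 0.837 in CD oncogene livers. For the sparsely counted Wif1 and Sfrp1 the leading genes were 1700052K11Rik (r = 0.903) and Dennd6a (0.809), from few counts in the member.

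Markers of other liver cells moved with part of these results. Portal fibroblast markers, of which 4 of 5 were tested, summed to 38.09 to 52.31 CPM in CD oncogene livers and to 7.843 to 14.27 in the 9 other livers, and 3 of the 4 rose on CD, where 35.4% of all tested genes were called in either direction. Markers of stellate cells and fibroblasts summed to 733.6, 726.2 and 295.2 CPM in the 3 CD oncogene livers against 276.6 to 380.4 in CD Vec, with 5 of 12 higher and 3 lower. Smooth muscle markers summed to 15.60 to 70.16 CPM against 11.76 to 17.28, and cholangiocyte markers to 120.8 to 381.4 against 36.77 to 46.27. Most of that last sum was Spp1, at 111 to 368 CPM in CD oncogene and 28.2 to 38.6 in CD Vec livers. Spp1 and Krt19 rose on CD, and Krt7, Epcam and Sox9 were not called, at log2 effects of 0.33, -0.50 and -0.41 (adjusted p = 0.663, 0.398 and 0.393, edgeR). Of all cell type markers only Gli1 of the portal fibroblast list was at 0 in any library, and no other marker was. Dkk2, Dkk3 and Frzb were highest in the same 3 livers, and the part of these cells in their results was not tested. On LPD, portal fibroblast sums were 9.796 to 11.85 CPM in Vec and 10.62 to 14.27 in oncogene livers, stellate and fibroblast sums 291.6 to 354 and 295.4 to 402.5, and cholangiocyte sums 48.91 to 57.60 and 40.74 to 52.71. Mesothelial markers summed to 2.034 to 7.028 CPM over all livers, with 0 of the 4 tested called in oncogene against Vec livers on either diet. Macrophage sums overlapped on CD and were 178.6 to 310.8 in oncogene against 133.4 to 164.4 CPM in Vec livers on LPD. Of the 6 markers, 1 was called higher on CD and 0 on LPD, where 35.4% and 1.32% of all tested genes were called. Among oncogene livers 1 of the 6 was lower on LPD than on CD, where 20.0% of all genes were called. Lymphocyte sums were 11.11 to 14.96 in oncogene against 6.479 to 8.810 CPM in Vec livers on CD. On LPD they were 11.92 to 19.06 against 8.106 to 10.31 CPM. Most of the lymphocyte sum was Ptprc, which is expressed by all leukocytes, and of the 5 genes in that list 1, Ptprc, was called on CD and 0 on LPD. The other 4 genes were not called: oncogene against Vec means on CD were 0.993 against 0.581 CPM for Nkg7, 0.582 against 0.430 for Cd3e, 0.377 against 0.487 for Cd79a and 0.206 against 0.245 for Ms4a1. On LPD they were 1.20 against 0.500 for Nkg7, 0.525 against 0.339 for Cd3e, 0.556 against 0.719 for Cd79a and 0.364 against 0.528 for Ms4a1. Endothelial sums overlapped on both diets, but 1 of the 6 markers, Clec4g, a lectin of sinusoidal endothelium, was at 20.1 to 26.3 CPM in CD oncogene against 39.7 to 54.9 in CD Vec livers (log2 -1.09 ± 0.18, adjusted p = 0.000695, edgeR) and at 52.0 to 66.2 in LPD oncogene livers, higher than on CD (1.37 ± 0.18, adjusted p = 0.000707). Wnt2 and Rspo3 fell on CD with it, and the part of these cells in their values was not tested. The other 5 endothelial markers were not called in any comparison. On CD their oncogene against Vec means were 21.7 against 17.2 CPM for Pecam1, 17.0 against 10.5 for Cdh5 and 12.8 against 6.70 for Lyve1. They were 32.0 against 30.5 CPM for Stab2 and 21.3 against 41.3 for Kdr, the only one of the 5 with a lower mean. The part of any of these cells in the Sfrp2 levels was not tested.

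**Figure D4:**
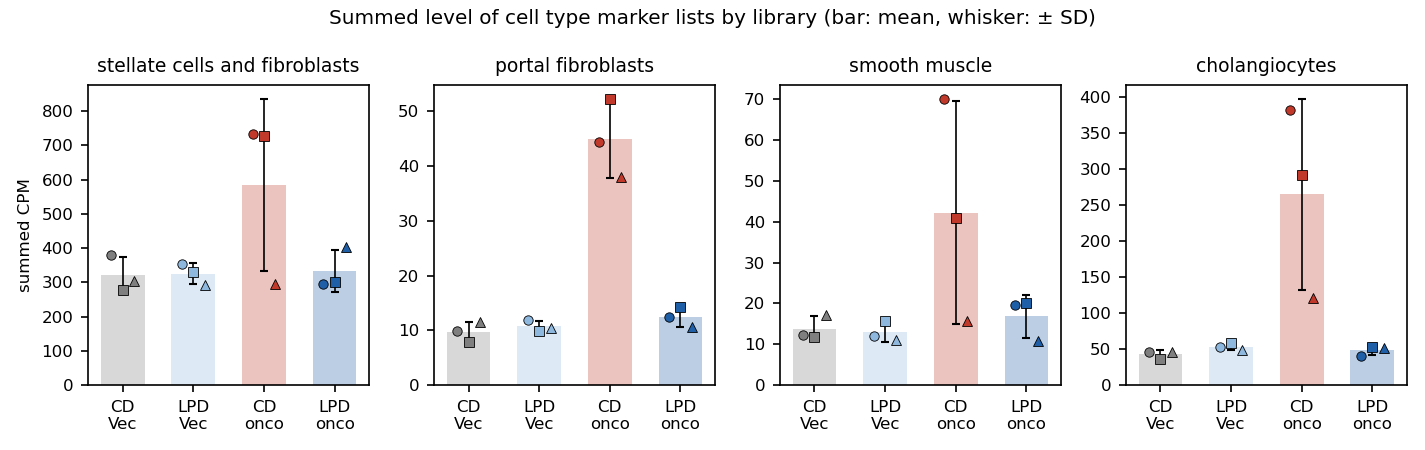
Summed CPM of 4 marker lists is plotted by library, each list on its own axis that starts at 0, with 1 point per library, the mean as a bar and ± SD as a whisker. Portal fibroblast and cholangiocyte sums were higher in all 3 CD oncogene livers than in the other 9, the latter sum being mostly Spp1, whereas the stellate and smooth muscle sums of CD oncogene replicate 3 lay within the range of Vec livers.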

How the data were processed

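RNA-seq counts of 12 mouse liver libraries were analysed as deposited, whole-number counts of reads per gene that the authors made by aligning to mm10 with HISAT2 and counting with featureCounts under Entrez identifiers. Versions and the strand setting are not given in the sources used here. The labels name an rRNA-depletion kit and the methods a stranded mRNA kit. Of 27179 identifiers, 25275 matched RefSeq symbols and 18 GENCODE M21. Genes passing filterByExpr (13947) were fitted in edgeR 4.0.16 (R 4.3.3) with TMM factors of 0.864 to 1.12, 1 mean per group over all 4 groups and quasi-likelihood tests, adjusted by Benjamini-Hochberg over all tested genes, and called at 0.05. DESeq2 1.42.0 was an alternative. On simulated data with 200 genes changed 4-fold, 79% were recovered on CD and 70% for the interaction. The members and gene lists were chosen with earlier results of these data known. Each Wnt pathway list is described by its counts and at most 4 genes, those of highest mean CPM among tested. The secreted antagonists are the exception and are all given. Cell type markers named singly, Axin2 and Tcf7 were chosen after their values were seen. No replicate pair agreed within sampling noise. The p-values set differences between group means against the spread among libraries of the same group, over these 12 libraries.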

Additional observations from a re-analysis of the deposited data

Results flagged for a closer look

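In edgeR's interaction test the oncogene effect differed between the diets for 9 of the 39 tested genes of the Wnt pathway lists other than the 7 members, where 8.91% of all tested genes were called. Of these 9, Axin2 (-1.63, adjusted p = 0.0128) and Tcf7 (-3.06, adjusted p = 0.000373) were named after their values were seen, and the other 7 by the rule on mean CPM. The log2 interaction, LPD effect minus CD effect, was -1.33 for Rnf43 (adjusted p = 0.0384), -0.81 for Znrf3 (0.0221), -1.76 for Lrp5 (0.0314), -2.40 for Lgr5 (0.0487) and -1.39 for Glul (0.0169), so that the effect was lower on LPD than on CD. Of these 5 only Glul was called on LPD, and the LPD effect of Lrp5 was -0.14 (adjusted p = 0.938). It was 1.80 for Wnt5b (adjusted p = 0.0126) and 1.31 for Rspo3 (0.016), which fell on CD. None of the 5 tested secreted antagonists other than Sfrp2 was called in that test. With each of the 12 libraries left out in turn, every sign was kept, and the call was lost in 9 of the 12 fits for Rnf43, 3 for Znrf3, 7 for Lrp5 and 11 for Lgr5, but in none for Wnt5b, Rspo3 and Glul. With a term for the header run none of the 7 was called, with adjusted p from 0.117 for Rspo3 to 0.293 for Lgr5.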

How the results depend on the processing

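Limits first. The counts of Dkk2, Dkk4, Wif1 and Sfrp1 are low, and common dispersion corresponded to a coefficient of variation of 23.2% between livers. Library composition matters: with total counts only, the median log2 effect of all tested genes moved from -0.010 to 0.278 on CD, from 0.011 to 0.121 on LPD and from 0.022 to -0.156 for the interaction, and the share of called genes that were higher on CD moved from 52.8 to 78.8% and for the interaction from 50.4 to 29%. The runs of header numbers are partly confounded with group, and the 2 CD oncogene livers of 1 run are alone in it.

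The number of members called on CD other than Sfrp2 was 3, went to 0 with a term for the header run, was 2 when only the 2 groups were fitted, where Dkk4 did not pass the count filter, and was 2 to 3 with 1 library left out. Between the diets in oncogene livers it was 2, with 1 left under no count filter, under a replicate block and when only the 2 groups were fitted, 0 with the run term, and 1 to 2 with 1 library left out. Dkk3 was lost in all 4 of these fits, at adjusted p of 0.0554, 0.0649, 0.0706 and 0.759, and Dkk2 with the run term only (-3.81, adjusted p = 0.155). For the interaction DESeq2 called 2 and edgeR 0. Replicate numbers did not pair the livers: 2 of 18 same-numbered pairs correlated above 0.1, over a range of -0.183 to 0.167, and the block changed no other member's call.

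Reversals were all among uncalled values. The Sfrp1 effect on CD, -0.26, became 0.02 with total counts and 0.34 with the run term, and ranged from -0.53 to 0.01 with 1 library left out. With the run term Sfrp1 became -0.34 between the diets in oncogene livers and -0.10 for the interaction. The Dkk2 effect on LPD became -0.06 with the block and -0.17 with the run term, the Dkk3 diet effect in Vec livers -0.02 with the block, and the Wif1 interaction -0.05 with total counts and -0.01 with a prior count of 2. With 1 library left out, effects on LPD ranged from -0.19 to 0.42 for Sfrp1, -0.90 to 1.67 for Dkk2 and -3.25 to 0.52 for Dkk4. Diet effects in Vec livers ranged from -0.60 to 0.01 for Sfrp1, -1.65 to 0.42 for Wif1, -0.54 to 1.68 for Dkk2, -0.24 to 0.22 for Dkk3 and -1.86 to 0.55 for Dkk4. The diet effect of Sfrp1 in oncogene livers ranged from -0.19 to 0.35 and the Wif1 interaction from -1.28 to 0.81. The untested Sfrp2 diet values ranged from -0.56 to 1.36 in Vec livers, the highest without CD Vec replicate 1, and from -0.43 to 1.46 in oncogene livers, the lowest without CD oncogene replicate 1. The causes were not tested.

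Counts of all called genes depended on the fit. On CD 4933 became 945 with the run term and 3014 with 2 groups. On LPD 184 became 476 by DESeq2, 75 with the run term and 505 with 2 groups, or 52 to 254 with 1 library left out. Between the diets in Vec livers 43 became 66 with total counts, 338 by DESeq2, 16 with the block, 16 with the run term and 3 with 2 groups (5 to 104 with 1 library left out). In oncogene livers 2784 became 618 with the run term (1585 to 3660), and for the interaction 1243 became 2042 by DESeq2, 812 with the block and 85 with the run term (391 to 1404). With the run term the share of higher calls was 67.9% on CD, 28.6% between diets in oncogene livers, where it was 43.4%, and 37.6% for the interaction.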
